A study of Mus musculus with 6 samples.

Results

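The Slco genes encode organic anion transporting polypeptides, membrane carriers that move bile acids, steroid conjugates, thyroid hormones, prostaglandins and many drugs into cells. In the brain they are best known at the blood-brain barrier, where endothelial Slco1a4 carries organic anions and drugs and Slco1c1 carries thyroxine. Slco1b2 is best known as an uptake carrier of hepatocytes. The 9 genes described here (Slco1a4, Slco1a5, Slco1b2, Slco1c1, Slco2a1, Slco2b1, Slco3a1, Slco4a1 and Slco5a1) were taken by symbol from the 21006 genes with values, and all 9 were found. Slco1b2 is also a gene that the study itself names.

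RNA was measured in the prefrontal cortex of 6 male C57BL/6 mice, wild type and 18 months old per the labels. The 3 PND mice modelled postoperative neurocognitive disorder. They received isoflurane anesthesia and an exploratory laparotomy, an opening of the abdomen to inspect its organs, with lidocaine cream and povidone iodine on the wound afterwards. The 3 CON mice had neither anesthesia nor operation at that stage. Both groups went through the same behavior tests, and all animals were deeply anesthetized with isoflurane and perfused with saline shortly after a Barnes maze test, when the tissue was taken. PND and CON therefore differ in anesthesia, operation and wound care together, and these cannot be told apart. Levels are FPKM, fragments normalized for exon length and library size. The lengths that fitted most values summed each gene's distinct exons without merging overlaps. Genes with many overlapping annotated exons can therefore read low, so the order and shares between genes are approximate.

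The tissue carried the markers of cortex. The summed level of 12 cortical neuron markers lay between 852.6 and 923.2 FPKM in PND and between 870.4 and 958.2 FPKM in CON. Low values moved in steps of 1 fragment, and the step sizes gave effective depths of 7193226 to 9388019 fragments. The samples differed in how genes of high GC content were represented. The median deviation of the 1233 genes of highest GC content (mean of 1 FPKM or more) ran from -0.56 on the log2 scale in CON replicate 1 to 0.49 in CON replicate 2, with -0.30 and 0.37 in PND replicates 2 and 3, so this spread lay within both groups.

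Slco1a4 had the highest level of the 9 genes in every sample. It stood at 15.9, 13.2 and 11.5 FPKM in PND replicates 1 to 3 and at 11.6, 10.7 and 9.74 FPKM in CON replicates 1 to 3. Slco1c1 came next, with 5.63, 5.05 and 5.36 FPKM in PND and 5.06, 5.97 and 6.07 FPKM in CON. Its level was below that of Slco1a4 in 6 of 6 animals, and the means differed 2.19-fold. These 2 carriers of the blood-brain barrier together made up 79.1% ± 3.53 of the summed FPKM of the 9 genes in PND and 79.1% ± 0.912 in CON (SD, n = 3 each). With Slco4c1 and Slco6c1, the other Slco genes with values, added to the sum, the shares were 72.3% ± 3.97 and 70.6% ± 0.592.

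Slco3a1, a widely expressed carrier known for prostaglandin transport, followed at 2.03, 2.35 and 2.85 FPKM in PND and 2.35, 2.10 and 2.25 FPKM in CON. Slco2b1, a carrier of steroid sulfates, stood at 1.47, 1.20 and 1.50 FPKM in PND and 0.691, 1.77 and 1.32 FPKM in CON. The lowest Slco3a1 value (2.03 FPKM) lay above the highest Slco2b1 value (1.77 FPKM). Slco5a1, whose substrates are little known, ranged from 0.379 to 0.774 FPKM over the 6 samples and lay below Slco2b1 in 5 of 6 animals, so those neighbours overlapped.

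The other 4 genes were rare transcripts. Slco1b2 had a mean of 0.137 FPKM over the 6 samples, at percentile 16.3 of all genes, and lay below Slco5a1 in 6 of 6 animals. Slco4a1, a carrier of thyroid hormones, had a mean of 0.112 FPKM, and Slco2a1, the prostaglandin transporter, 0.0892 FPKM. The order of Slco1b2, Slco4a1 and Slco2a1 was not fixed, since in each neighbouring pair the higher mean was higher in only 3 of 6 animals. Slco1a5, a carrier known mainly from the intestine and kidney, was listed at 0 in 4 of the 6 samples and at 0.0557 FPKM in PND replicate 1 and 0.0657 FPKM in CON replicate 1.

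**Figure D1:**
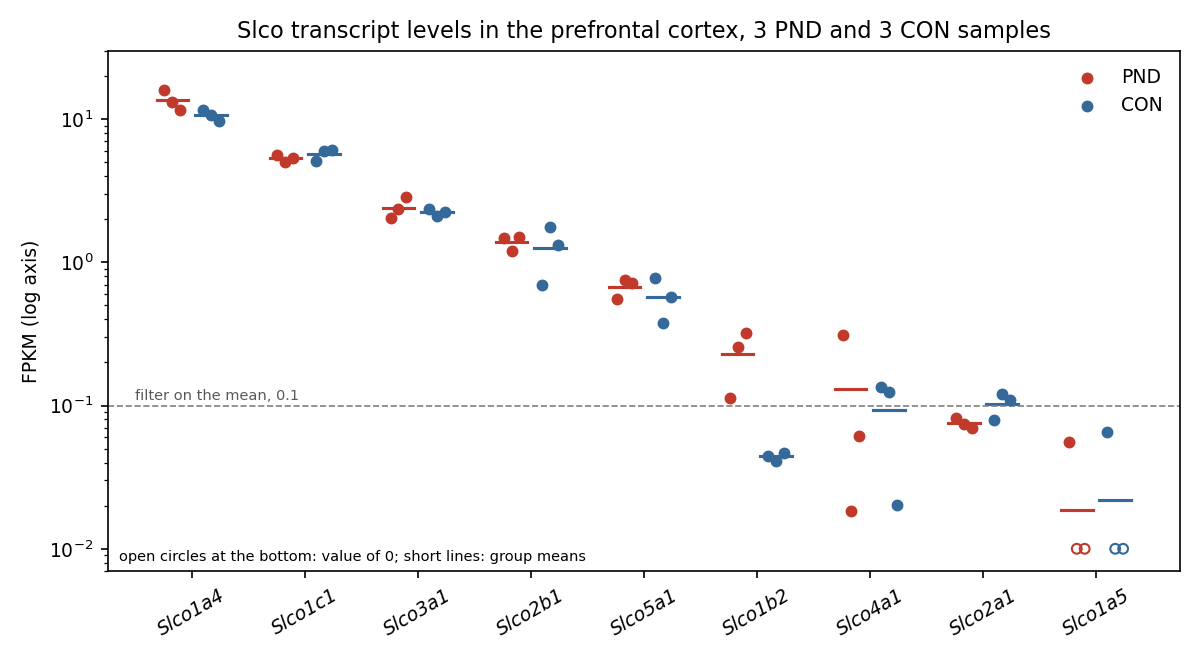
FPKM of each Slco gene on a log axis, with 1 point per sample (red, 3 PND; blue, 3 CON), short lines at group means, and open circles for values of 0. The genes span from a mean of 12.1 FPKM for Slco1a4 to 0.0202 FPKM for Slco1a5, and the only gene whose groups do not overlap is Slco1b2.

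Of the 9 genes, 4 lie together on chromosome 6 in the GENCODE M21 annotation of GRCm38: Slco1c1 (141524368 to 141570177, plus strand), Slco1b2 (141629518 to 141686646, plus strand), Slco1a4 (141805440 to 141856199, minus strand) and Slco1a5 (142234227 to 142322981, minus strand). All 9 are annotated as protein coding. Position and level did not go together in this cluster, which holds both the most abundant and the least abundant of the 9 genes. The coding sequences of Slco1a4 and Slco1a5 are 89.4% identical over 2010 bases, whereas the other 35 pairs of the 9 genes share between 55.3% and 64.3% of their aligned bases. The 90 coding bases from position 301 to 390, counted from the start codon, are printed because they show how closely these transcripts match. Capitals mark the 9 bases that differ.
Slco1a4: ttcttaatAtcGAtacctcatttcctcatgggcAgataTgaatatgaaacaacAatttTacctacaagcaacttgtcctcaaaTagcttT
Slco1a5: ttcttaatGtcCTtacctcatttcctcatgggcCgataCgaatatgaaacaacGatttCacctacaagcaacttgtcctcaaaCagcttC
How reads that fit both genes were divided is not given in the sources used here. The 4 fragments of Slco1a5 in all, against 4287 of Slco1a4, could therefore include fragments of its neighbour, and the level of Slco1a5 is uncertain. Slco2a1 shares stretches of at least 100 bases at 90% identity or more with the transcripts of 1630 other genes, and Slco2b1 overlaps Gm15635 and Gm34280 on the opposite strand, so their values are uncertain in the same way.

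Slco1b2 was the gene whose level differed between the groups by the largest factor. It stood at 0.114, 0.254 and 0.321 FPKM in PND replicates 1 to 3 and at 0.0447, 0.0411 and 0.0466 FPKM in CON replicates 1 to 3. All 3 PND samples lay above all 3 CON samples, and the PND samples differed among themselves far more than the CON samples (0.230 ± 0.106 against 0.0442 ± 0.00279 FPKM, mean ± SD, n = 3 each). The change was tested with limma on log2(FPKM + 0.1), which understates the change of low genes. The log2 fold change was 1.14, with a 95% interval from 0.12 to 2.15 and an unadjusted p of 0.0327, which passed the cut-off that the study used (absolute log2 fold change above 1 and unadjusted p below 0.05). The Benjamini-Hochberg adjusted p from limma over all 18185 genes tested was 0.9999.

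The difference in Slco1b2 rested on few fragments. The values correspond to 6, 12 and 18 fragments in PND replicates 1 to 3 and to 2 fragments in each CON sample. Scaled by depth, the 36 PND fragments stood against the 6 CON fragments at a ratio of 5.24, with an exact 95% interval from 2.19 to 15.2 that covers counting error only. All 6 numbers were even, and the smallest whole numbers with the same steps, which would apply if the authors' exon length were shorter than the annotated 5964 bases in that proportion, are 3, 6 and 9 against 1, 1 and 1, with the same depth-scaled ratio and an interval from 1.53 to 27.8. An exact two-sided permutation test on FPKM gave p = 0.1, the smallest p that 3 against 3 samples allow. Slco1b2 also left the cut-off when PND replicate 2 or 3 or any CON replicate was left out (p from 0.0501 to 0.0948, log2 fold change from 0.93 to 1.15). It was also outside with a pseudocount of 1 FPKM (0.23), after quantile normalization (0.94) and with replicate number as a block (unadjusted p 0.0598 in limma).

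**Figure D2:**
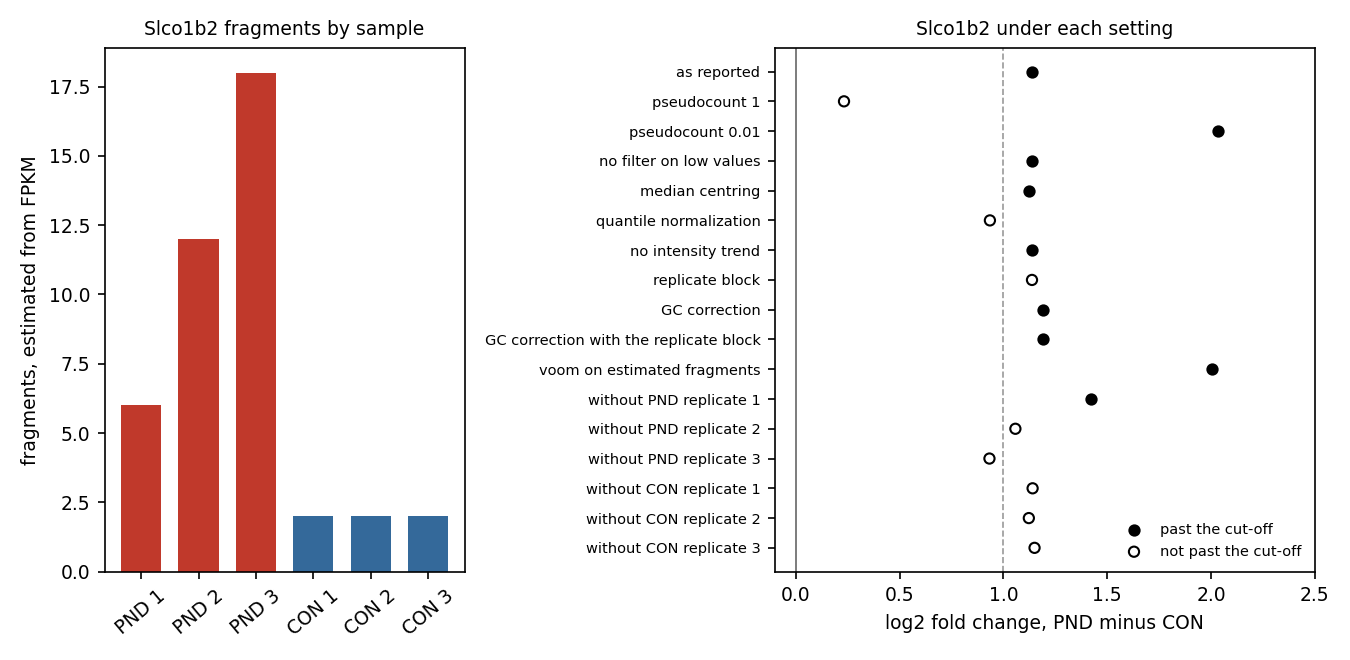
Left, bars of Slco1b2 fragments estimated from FPKM in each sample, with 18 in PND replicate 3 and 2 in each CON sample. Right, the log2 fold change of Slco1b2 (PND minus CON) under each setting, with filled points for settings past the cut-off; all lie above 0, from 0.23 with a pseudocount of 1 FPKM to 2.03 with a pseudocount of 0.01 FPKM.

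Against the whole table, a gene past the cut-off was uncommon but not rare. Of the 18185 genes tested, 241 passed it (1.33%), 153 higher and 88 lower in PND, a split that was 124 higher and 116 lower after quantile normalization. Groups that did not overlap were found for 7.66% of genes, and an adjusted p below 0.05 for 2 genes (0.011%). Of the 7 Slco genes that passed the filter of a mean of 0.1 FPKM, 1 passed the cut-off, 1 had groups that did not overlap, both times Slco1b2, and 0 had an adjusted p below 0.05 in limma. Slco1b2 passed that filter only through the PND samples (mean 0.230 FPKM, against 0.0442 FPKM in CON), and it is a gene the study named from the same comparison, so nothing is read from these counts against the shares over all genes. At an unadjusted p below 0.05 the count was also 1, beside 569 of all genes tested (3.13%). Of the 7, 6 had a log2 fold change above 0, with a median of 0.21 on the log2 scale, beside 0.01 for all genes tested. Slco4a1 also reached the filter only through PND (mean 0.130 FPKM, against 0.0932 FPKM in CON). Fitted without the filter, Slco2a1 (-0.21) and Slco1a5 (-0.030) were both lower in PND. Nothing is read from this count and median either.

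Slco1a4 had the second lowest p of the 7 genes. The mean was 13.5 ± 2.21 FPKM in the PND samples against 10.7 ± 0.947 FPKM in the CON samples (SD, n = 3 each). The log2 fold change was 0.33 with a 95% interval from -0.029 to 0.68. In limma the unadjusted p was 0.0669 and the adjusted p 0.9999. The groups overlapped narrowly, since PND replicate 3 (11.5 FPKM) lay just under CON replicate 1 (11.6 FPKM). The unadjusted p was 0.0258 after correction for GC content and 0.0306 without PND replicate 3 (log2 fold change 0.44). It was 0.235 without PND replicate 1, the sample with the highest value, where the log2 fold change was 0.21, and 0.185 without CON replicate 3. Behind these values stood 503 to 1009 fragments per sample, so counting error was small beside the spread between animals.

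Slco1c1 was the only gene of the 7 with a lower mean in PND. It averaged 5.35 ± 0.294 FPKM in the PND samples against 5.70 ± 0.557 FPKM in the CON samples. The log2 fold change was -0.087 with an interval from -0.42 to 0.24 and an unadjusted p of 0.555 in limma. The interval leaves out a change of 1.5-fold in either direction on this scale. The ratio of Slco1a4 to Slco1c1, the 2 main blood-brain barrier members, was 2.82, 2.61 and 2.15 in PND replicates 1 to 3 and 2.30, 1.79 and 1.61 in CON replicates 1 to 3, so PND replicate 3 lay below CON replicate 1 while the other PND samples lay above all CON samples.

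**Figure D3:**
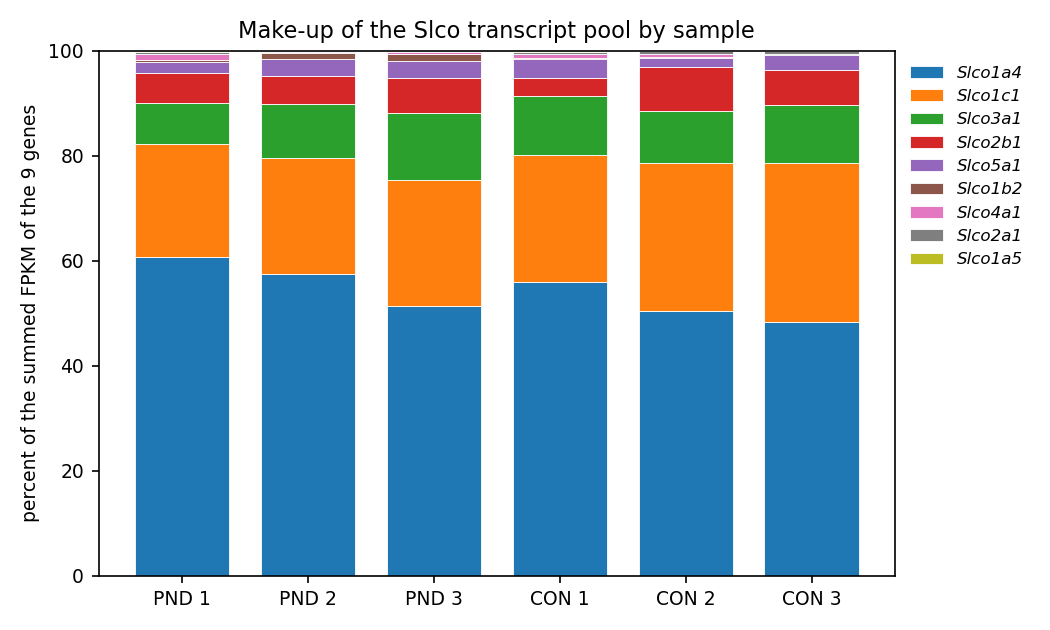
Stacked bars of each Slco gene's percent of the summed FPKM of the 9 genes, per sample. Slco1a4 takes from 48.4% (CON replicate 3) to 60.8% (PND replicate 1), Slco1c1 from 21.6% to 30.1%, and Slco1b2 at most 1.44%.

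The remaining genes gave no difference beyond the spread between animals. Slco3a1 had a log2 fold change of 0.10 (interval -0.36 to 0.55) and Slco5a1 of 0.23 (interval -0.52 to 0.99). Slco2b1 had 0.21 (interval -0.59 to 1.01), and this turned to -0.14 without CON replicate 1, the sample with its lowest value. That sample also had the lowest representation of genes of high GC content, and the Slco2b1 transcript has a GC content of 51.5% against 40.3% for Slco1a4. After correction for GC content the log2 fold change of Slco2b1 was 0.17. CON replicate 1 was still its lowest sample, at -0.18 on the log2 scale against 0.49 to 0.76 in the others. The part of GC content in that value was not tested. Slco4a1 had the widest relative spread of the 7 genes tested, from 0.0183 to 0.311 FPKM within PND alone (1, 4 and 19 fragments), and its interval from -1.31 to 1.51 could not show even a 2-fold change.

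Slco2a1 and Slco1a5 fell below the filter and were not tested with the rest. Slco2a1 stood at 0.0816, 0.0747 and 0.0699 FPKM in PND and at 0.0788, 0.121 and 0.110 FPKM in CON, with 30 and 36 fragments in all. The depth-scaled ratio was 0.728, with an exact 95% interval from 0.433 to 1.22 that includes 1. For Slco1a5, with 2 fragments in each group, no difference was detectable at this depth.

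**Figure D4:**
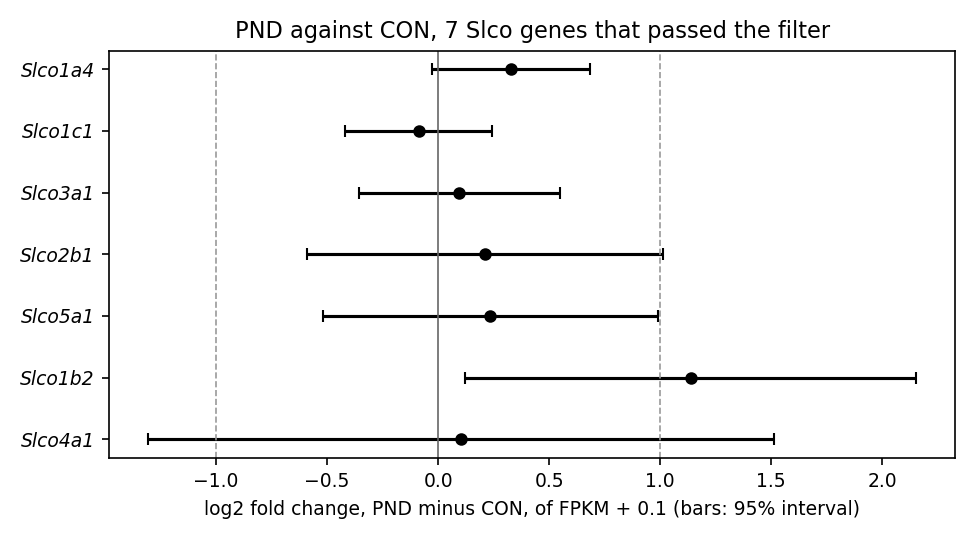
Log2 fold change (PND minus CON) of FPKM + 0.1 for the 7 Slco genes tested, with 95% intervals; dashed lines mark -1 and 1. The interval of Slco1b2 (0.12 to 2.15) is the only interval that leaves out 0.

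A further 8 Slco genes were listed to complete the family, and values were at hand for 2 of them. Slco4c1, a carrier known from the kidney, averaged 2.12 ± 0.299 FPKM in the PND samples against 2.45 ± 0.155 FPKM in the CON samples, a level near that of Slco3a1. Its log2 fold change was -0.21 with an interval from -0.64 to 0.23. Slco6c1, known from the testis, fell below the filter, with 4, 2 and 5 fragments in PND and 2, 0 and 1 in CON.

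The study paired miR-200b-3p with Slco1b2 from target databases, and by qRT-PCR it reported Slco1b2 higher and the microRNA lower in PND. The mature sequence is therefore printed with the others of the same seed. The seed is the stretch of bases 2 to 8, in capitals, through which a microRNA pairs with its targets. The sequences are from RefSeq on GRCm38.p6, and miRNA levels were not analysed here.
mmu-miR-200b-3p: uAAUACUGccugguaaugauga
mmu-miR-200c-3p: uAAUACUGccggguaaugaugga
mmu-miR-429-3p: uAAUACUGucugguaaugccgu
The 7 letters that pair with this seed, CAGTATT on the transcript strand, are present in the longest annotated 3′ UTR of 2791 of 20999 genes (13.3%). The 1040 bases of the Slco1b2 3′ UTR in GENCODE M21 hold no such match and no match to the 6 letters AGTATT, which 32.3% of genes hold. Of the 9 Slco genes, only Slco5a1 held the 7 letters in its 3′ UTR, 2 times in 5319 bases, at chr1:12871121-12871127 and chr1:12870285-12870291 on the minus strand. The 6 letters were also present in the 3′ UTR of Slco1c1 and of Slco2b1, 1 time each, and the 7 letters ahead of the 3′ UTR in Slco1a4 and in Slco4a1, 1 time each. The Slco5a1 matches are shown within 30 bases each, with the match in capitals.
Slco5a1 first match: tgaatatataaactaCAGTATTcttccata
Slco5a1 second match: cacaggtagaatttcCAGTATTcttaatac
A match describes letters only, and the absence of a match in this annotation says nothing about the microRNA. Slco5a1, which holds the matches, averaged 0.678 ± 0.105 FPKM in the PND samples against 0.577 ± 0.198 FPKM in the CON samples.

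The genes with which the Slco carriers share substrates were read beside the share of all genes tested past the cut-off, 1.33%. Of the Slc22 organic ion transporters, 8 of 12 with values were tested and 0 passed the cut-off. Slc22a17, a receptor for lipocalin, had a log2 fold change of 0.29 (interval -0.97 to 1.56). Slc22a23, whose substrates are little known, had 0.26 (interval -0.17 to 0.68). Of the ABC efflux pumps, which carry drugs out of endothelial cells, 8 of 10 were tested and 0 passed. In 2 of these 8 the groups did not overlap, beside 7.66% of all genes tested. Abcb1a, the P-glycoprotein of the blood-brain barrier, averaged 8.15 ± 1.22 FPKM in the PND samples against 6.97 ± 1.56 FPKM in the CON samples. Abcc5, an exporter of cyclic nucleotides, stood at 12.0, 10.6 and 12.6 FPKM in PND and 12.8, 14.2 and 13.2 FPKM in CON, so all PND samples lay below all CON samples, at a log2 fold change of -0.19 (interval -0.47 to 0.090). Abcc3, an exporter of conjugated organic anions, was the other pump whose groups did not overlap, and it lay the other way, at 0.232, 0.225 and 0.247 FPKM in PND and 0.0729, 0.201 and 0.0950 FPKM in CON (log2 fold change 0.63, interval -0.29 to 1.54).

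For thyroid hormone transport and action, the field of Slco1c1, 11 of 13 genes were tested. Of these, 0 passed the cut-off, beside 1.33% of all genes tested. Dio2, the enzyme that activates thyroxine, stood at 24.1, 26.6 and 26.9 FPKM in PND and 28.6, 29.8 and 30.0 FPKM in CON, lower in every PND sample (log2 fold change -0.19, interval -0.42 to 0.041). Klf9, a target gene of thyroid hormone, stood at 75.7, 87.3 and 79.4 FPKM in PND and 71.6, 63.4 and 73.3 FPKM in CON, higher in every PND sample (log2 fold change 0.22, interval -0.029 to 0.46). Neither passed the cut-off, and both had an adjusted p of 0.9999 in limma. Groups that did not overlap were found for 2 of the 11 genes, beside 7.66% of all genes tested.

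For prostaglandins, the substrates of Slco2a1 and Slco3a1, 12 of 15 genes of synthesis, breakdown and reception were tested, 6 being higher and 6 lower. Of these, 0 passed the cut-off, beside 1.33% of all genes tested. Ptgds, the prostaglandin D2 synthase of the meninges and choroid plexus, varied widely, from 19.3 to 45.3 FPKM in PND and from 9.11 to 33.0 FPKM in CON (log2 fold change 0.75, interval -0.44 to 1.95). Ptges3, a co-chaperone that also has prostaglandin E synthase activity, had a log2 fold change of -0.02.

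The cells that could carry these transcripts were followed through their markers. Fewer cells of a type and less RNA per cell cannot be told apart in such bulk samples. The 17 brain endothelial markers summed to between 57.5 and 71.9 FPKM in PND and between 54.9 and 82.5 FPKM in CON, with 0 past the cut-off and a median log2 fold change of -0.02. Set against that sum, Slco1a4 amounted to 22.2%, 22.9% and 16.0% in PND replicates 1 to 3 and to 21.2%, 13.0% and 14.9% in CON replicates 1 to 3, so the groups overlapped. Slco1c1 amounted to 8.03% ± 0.672 of that sum in PND and 8.57% ± 1.15 in CON. Itm2a and Bsg, the endothelial markers with the highest levels, had log2 fold changes of -0.32 and -0.15. Of the 17, 8 were higher and 9 lower in PND. Over all genes tested, 1.33% passed the cut-off. Ly6c1, a surface protein of brain endothelium, was the only endothelial marker with an unadjusted p below 0.05, beside 3.13% of all genes tested. It stood at 7.11, 5.99 and 4.27 FPKM in PND and at 3.20, 3.35 and 3.12 FPKM in CON. The log2 fold change was 0.79 (interval 0.31 to 1.28). Tek, the angiopoietin receptor, was the other endothelial marker whose groups did not overlap, and it lay the other way, at 1.82, 1.62 and 1.65 FPKM in PND and 2.49, 2.06 and 2.17 FPKM in CON (log2 fold change -0.38, interval -0.81 to 0.054). Groups did not overlap for 2 of the 17 endothelial markers, beside 7.66% of all genes tested. The part of endothelial cells in the Slco1a4 values was not tested.

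Astrocyte markers (10 tested) and microglia markers (13 tested) had 0 genes past the cut-off, beside 1.33% of all genes tested. Their median log2 fold changes were 0.04 and 0.03. At an unadjusted p below 0.05 in limma stood 3 of the 10 astrocyte and 1 of the 13 microglia markers, all with groups that did not overlap. Over all genes tested these shares were 3.13% and 7.66%. These markers lay in both directions, none passed the cut-off, and each had an adjusted p of 0.9999 in limma. Among astrocyte markers, Gfap, the intermediate filament of astrocytes, had a log2 fold change of 0.66 (interval 0.31 to 1.02). Gjb6, a gap junction protein, had 0.43 (interval 0.033 to 0.83), and Aqp4, a water channel, had -0.36 (interval -0.67 to -0.053). P2ry12, a purine receptor of microglia, had -0.76 (interval -1.25 to -0.27). The summed astrocyte level overlapped between the groups (377.2 to 506.1 FPKM in PND and 323.8 to 625.1 FPKM in CON). Slco2b1 amounted to between 1.90% and 2.40% of the summed microglia markers in PND and between 1.19% and 2.29% in CON. Pericyte, smooth muscle and fibroblast markers (12 tested) also had 0 past the cut-off, with a median of -0.04, and so had cortical neuron markers (12 tested), with a median of -0.02.

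Beside Slco1b2, markers of hepatocytes and of the choroid plexus epithelium were read as lists, with values printed for some of them. Of 17 hepatocyte markers 6 had values, and their sum was between 0.788 and 2.07 FPKM in PND and between 1.09 and 1.54 FPKM in CON, most of it Cyp2e1, a cytochrome that other tissues also express. Apoa1, Fga and Apoh were each listed at 0 in 5 of 6 samples. Apob had 1, 2 and 5 fragments in PND and 1, 0 and 0 in CON, higher on average in PND as Slco1b2 was, and Cps1 had 4, 5 and 0 against 3, 3 and 0. The part of liver RNA in the Slco1b2 difference was not tested. Of 14 choroid plexus markers with values, 8 were tested, 6 were higher and 2 lower in PND, and their median log2 fold change was 0.43. In 2 of the 8 the groups did not overlap and the unadjusted p was below 0.05, both higher in PND, beside 7.66% and 3.13% of all genes tested. Clic6, an intracellular chloride channel protein, stood at 1.88, 1.51 and 2.14 FPKM in PND and at 0.962, 0.701 and 1.49 FPKM in CON, from 67, 48 and 81 fragments against 29, 23 and 43. Its log2 fold change was 0.80 (interval 0.091 to 1.51), under the 2-fold cut-off. Sostdc1, a secreted BMP antagonist, passed the cut-off: it stood at 0.258, 0.289 and 0.304 FPKM in PND and at 0.0762, 0 and 0.0794 FPKM in CON. On the log2 scale the fold change was 1.38 (in limma, unadjusted p 0.0119, adjusted p 0.9999), from 4, 4 and 5 fragments against 1, 0 and 1. Like Slco1b2, it passed the filter only through the PND samples, so the list's counts and median are no support for a rise of these markers. Of the 6 markers under the filter, Folr1 was at 0 in 5 of 6 samples and Kcne2 in 4, with 2 fragments each in CON replicates 1 and 3 as its only values. Otx2 had 3, 3 and 2 fragments in PND and 9, 0 and 4 in CON, and Aqp1 had 3, 1 and 0 against 0 in every CON sample. The summed choroid plexus markers overlapped (32.3 to 39.2 FPKM in PND and 34.3 to 37.8 FPKM in CON), a sum made up mostly of Enpp2, which other brain cells express as well. Ttr, listed with the thyroid hormone genes instead, had 1, 2 and 0 fragments in PND and 0, 1 and 0 in CON. The part of choroid plexus tissue in the Slco1b2 difference was not tested.

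**Figure D5:**
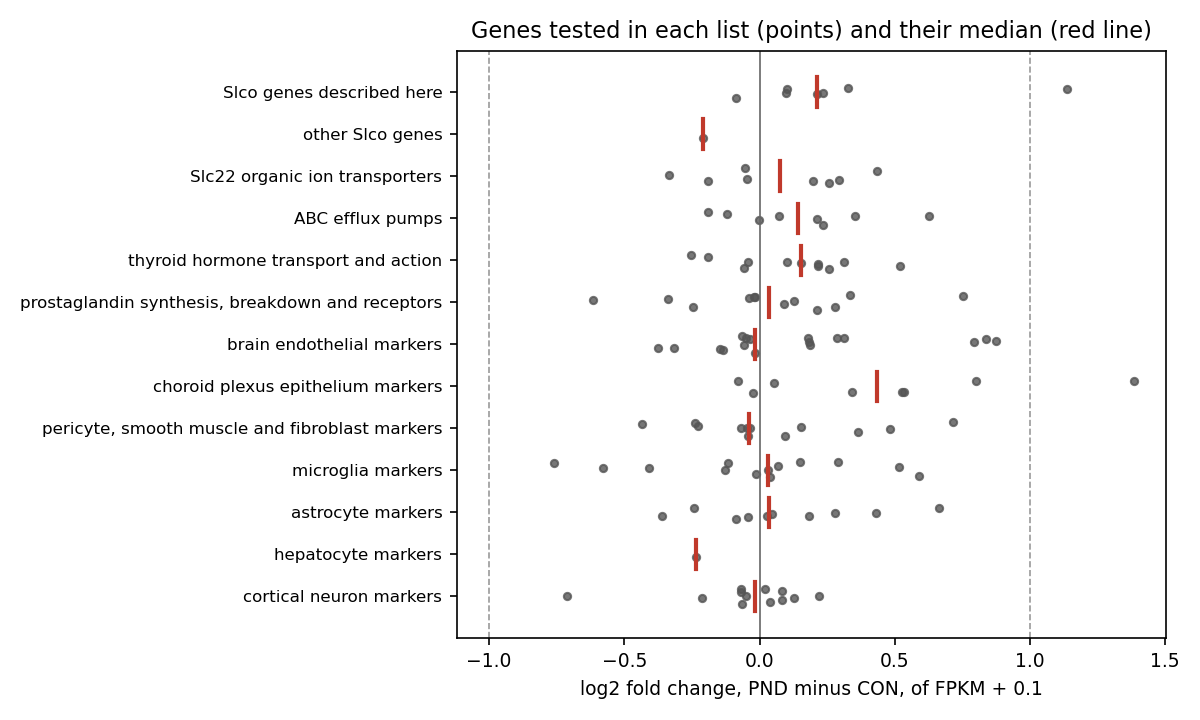
Log2 fold change (PND minus CON) of every tested gene in each list, 1 point per gene, with the list's median as a red line. Only Slco1b2 and Sostdc1 lie beyond the dashed lines at -1 and 1, and the medians run from -0.24 for the hepatocyte list, which has 1 gene tested, to 0.43 for the choroid plexus list.

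The 4 Slco genes with a mean of 1 FPKM or more did not follow each other over the 6 samples. Pearson's r between their log2 levels ran from -0.46 (Slco1c1 and Slco3a1) to 0.66 (Slco1c1 and Slco2b1). Among the 12387 genes at this level, those most like Slco1a4 over the 6 samples were Pcolce2 (r = 0.991), Tmem161b (0.984) and Gm43518 (0.981). Slco1c1 was most like Vcp (0.989), Sirt5 (0.985) and Gm44874 (0.979). Slco2b1 was most like Qsox2 (0.997), Cacnb3 (0.997) and Nudt16l1 (0.996), and Slco3a1 most like Srek1ip1 (0.977), Gm43773 (0.976) and Mrps25 (0.974). These are descriptions over 6 points, chosen from a search of many genes, and the points share each library's depth and base composition. Cacnb3, for example, ran from 3.38 FPKM in CON replicate 1 to 20.6 FPKM in CON replicate 2, the samples with the lowest and highest representation of genes of high GC content. The part of base composition in these correlations was not tested.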

How the data were processed

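The authors removed ribosomal RNA, filtered reads with Seqtk, aligned them with HISAT2, counted fragments per gene with StringTie, scaled them by TMM and deposited FPKM, 1 column per animal. The build, annotation and use of strand are not given in the sources used here for these libraries; the submitters' processing notes list mm8, mm9 and Bowtie 0.12.2 with no role. The authors tested differences with edgeR and limma.

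From the deposited FPKM, PND was compared with CON by limma 3.58.1 in R 4.3.3 (lmFit, eBayes with trend) on log2(FPKM + 0.1), for the 18185 genes averaging 0.1 FPKM or more, with no covariate and Benjamini-Hochberg adjustment over all of them. The fit was tested on simulated data. Symbols were found for 20866 of 21006 identifiers. Positions, sequences and exon lengths came from GENCODE M21 on GRCm38, read as reference only.

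Low values moved in steps of 1 fragment, from which depth and fragments were estimated using the summed length of each gene's distinct exons, overlaps not merged. For 73.3% of genes with an annotated length, all 6 values then lay within 0.05 of a whole number. Slco2b1 was among the genes whose own steps were used instead. Intervals on fragments are exact and cover counting error only. Effective depth was between 7193226 and 9388019 fragments. Similar stretches were searched with BLAST 2.17.0.

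The genes named were the 9 Slco genes, each list's genes past the cut-off or otherwise its 2 most abundant tested genes, and the 3 genes most alike over the samples. Marker genes at or near 0, those named for an unadjusted p below 0.05 or for groups that did not overlap, Cacnb3's levels and the ratio of Slco1a4 to Slco1c1 were singled out after values were seen. The members and lists were chosen with earlier results of these data known. Nothing says whether animals shared a cage or a batch, so p-values measure only the spread between these samples. Sample titles and labels differ on age, and the labels' age is used. Alternatives were the pseudocount, filter, scaling, trend, GC content, replicate number, fragments tested with voom, and each sample left out.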

Additional observations from a re-analysis of the deposited data

How the results depend on the processing

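Genes past the cut-off numbered 241 as reported, 25 with a pseudocount of 1 FPKM, 59 among genes averaging 1 FPKM or more, and 240 to 402 with a sample left out (402 without CON replicate 2). Of the 7 Slco genes tested, 1 passed as reported and 0 with a pseudocount of 1 FPKM (Slco1b2 at 0.23), the filter at 1 FPKM (Slco1b2 then not tested), quantile normalization (0.94, with an unadjusted p of 0.0835) or the replicate block, and 0 to 1 with a sample left out. Without PND replicate 1, Slco1b2 still passed, at 1.42. Over the alternatives the log2 fold change of Slco1b2 was always above 0, with an adjusted p of at least 0.828 in limma. Directions turned for Slco4a1 under quantile normalization (-0.21), without PND replicate 1 (-0.42) and without CON replicate 3 (-0.21), for Slco2b1 without CON replicate 1 (-0.14) and for Slco3a1 without PND replicate 3 (-0.026); the causes were not tested. With a sample left out, these ran from -0.42 to 0.48 for Slco4a1, from -0.14 to 0.49 for Slco2b1 and from -0.026 to 0.21 for Slco3a1. Slco1a4, Slco1c1 and Slco5a1 kept their direction in every alternative run, but with a sample left out Slco5a1 ran from 0.0074 (without CON replicate 2) to 0.44, Slco1a4 from 0.21 to 0.44 and Slco1c1 from -0.17 to -0.041.

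Whether the replicate numbers pair the animals is not known. Same-numbered samples deviated from their group means with correlations of -0.049, -0.45 and 0.027, too few to exclude a shared cage or batch. With the replicate block 226 genes passed the cut-off, and Slco1b2 had the same log2 fold change of 1.14 with an unadjusted p of 0.0598. With GC correction and the replicate block its p was 0.0431. Depth limits Slco1b2, Slco4a1, Slco2a1 and Slco1a5, which rest on 42, 39, 66 and 4 fragments over all 6 samples.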
